A study of Homo sapiens with 72 samples.

Results

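The replication-dependent histone genes are the 70 human protein-coding genes, of 20033 in the GENCODE 44 annotation of hg38, whose symbols start with H2AC, H2BC, H3C or H4C followed by a digit or are H1-1 to H1-6. Membership was set by symbol and not by a threshold on the measured values, although earlier results of these data were known. They comprised 6 genes for linker histone H1, 17 for H2A, 19 for H2B, 13 for H3 and 15 for H4. In all, 3 histone H3 modifications, dimethylated lysine 4 (H3K4me2), trimethylated lysine 4 (H3K4me3) and trimethylated lysine 27 (H3K27me3), were mapped by Cut&Tag, in which an antibody against the modification directs a transposase to cut and tag the DNA nearby. The cells were Raji, a Burkitt lymphoma line, and NALM6 and REH, both lines of B cell precursor acute lymphoblastic leukemia, cultured without treatment or with 1 nM Bryostatin, an activator of protein kinase C, overnight by the sample labels (the study's text gives a full day). Each line, mark and treatment had 3 libraries, giving 54 in all, and each line stands for its disease as a single established line. No source used here states that the replicates were separate cultures, so every p-value measures the spread between these libraries, which may be technical.

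Replication-dependent histone genes supply the proteins that package newly made DNA, and are expressed mainly in S phase. Most lie in clusters on the short arm of chromosome 6 and the long arm of chromosome 1, lack introns, and give mRNAs that end in a stem-loop instead of a poly(A) tail. H2A, H2B, H3 and H4 form the core of the nucleosome and H1 binds the DNA between nucleosomes. H3K4me3 and H3K4me2 mark promoters that are active or poised, and H3K27me3 is laid down by Polycomb complexes over silent genes.

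By start position, 55 of the 70 genes lay in 3 clusters on chromosome 6 and 15 lay elsewhere. The largest cluster (chr6:25725562-26286638 on hg38, from 1 kb before the first start to 1 kb after the last) held 34 genes from H2AC1 to H4C8. A second (chr6:27131795-27148106) held 5 genes from H2BC11 to H2AC12, and the last (chr6:27806929-27894425) held 16 genes from H2BC13 to H2BC17. On chromosome 1, 11 genes lay at chr1:149811373-149888965 and the pair H2AC25 and H2BC26 lay at chr1:228456873-228459103. H4C16 stood alone on chromosome 12 and H2BC12L on chromosome 21. An H2A and an H2B gene were divergently transcribed from starts 170 to 251 bp apart at 12 places, so that 24 genes shared a promoter region with a partner.

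The sequences below, from RefSeq (GRCh38.p14), are the 250 bases before the annotated start, 5′ to 3′ on the gene's strand. They show 1 promoter for each pattern described later: H2AC20 shares its promoter with H2BC21 and differed most in H3K4me3 between untreated Raji and REH, H4C16 had no peak of any mark in NALM6, H3C3 had no peak in Raji, H4C12 had the largest H3K4me2 difference called between Raji and REH, H1-4 had the highest H3K4me3 of the H1 genes, and H1-1 and H4C7 had no peak in any library. Capitals mark matches, on either strand, to the TATA box TATAAA, the CCAAT box CCAAT, the octamer ATTTGCAT and the H1 box AAACACA. Matches are to these letters at any position, so a match need not be a working site. The TATAAA of H4C16, for example, lies at the end of the printed stretch farthest from the start.
H2AC20 (chr1:149886668-149886917, plus strand): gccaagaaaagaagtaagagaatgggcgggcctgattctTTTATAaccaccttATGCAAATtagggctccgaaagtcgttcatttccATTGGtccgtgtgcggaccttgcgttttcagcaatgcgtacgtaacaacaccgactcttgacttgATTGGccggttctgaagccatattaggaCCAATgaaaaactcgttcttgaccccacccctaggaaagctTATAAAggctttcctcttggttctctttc
H4C16 (chr12:14771132-14771381, minus strand): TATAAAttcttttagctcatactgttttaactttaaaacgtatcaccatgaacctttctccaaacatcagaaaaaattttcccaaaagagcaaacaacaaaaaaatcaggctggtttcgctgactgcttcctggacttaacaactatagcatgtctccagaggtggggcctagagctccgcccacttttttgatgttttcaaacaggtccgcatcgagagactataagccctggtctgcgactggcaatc
H3C3 (chr6:26045134-26045383, plus strand): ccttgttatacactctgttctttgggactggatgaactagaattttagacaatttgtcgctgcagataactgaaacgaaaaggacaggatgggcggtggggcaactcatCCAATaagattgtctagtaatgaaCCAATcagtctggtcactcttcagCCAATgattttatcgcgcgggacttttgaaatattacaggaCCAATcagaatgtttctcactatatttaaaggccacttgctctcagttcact
H4C12 (chr6:27831561-27831810, minus strand): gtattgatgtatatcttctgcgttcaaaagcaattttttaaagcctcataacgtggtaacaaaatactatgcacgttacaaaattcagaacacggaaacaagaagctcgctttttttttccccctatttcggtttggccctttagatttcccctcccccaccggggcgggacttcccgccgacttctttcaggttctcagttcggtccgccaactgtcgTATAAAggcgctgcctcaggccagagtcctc
H1-4 (chr6:26156079-26156328, plus strand): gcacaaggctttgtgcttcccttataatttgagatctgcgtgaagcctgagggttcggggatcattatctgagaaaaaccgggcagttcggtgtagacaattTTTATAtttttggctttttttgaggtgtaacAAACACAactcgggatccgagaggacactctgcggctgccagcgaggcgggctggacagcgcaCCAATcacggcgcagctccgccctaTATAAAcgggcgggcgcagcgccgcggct
H1-1 (chr6:26017788-26018037, minus strand): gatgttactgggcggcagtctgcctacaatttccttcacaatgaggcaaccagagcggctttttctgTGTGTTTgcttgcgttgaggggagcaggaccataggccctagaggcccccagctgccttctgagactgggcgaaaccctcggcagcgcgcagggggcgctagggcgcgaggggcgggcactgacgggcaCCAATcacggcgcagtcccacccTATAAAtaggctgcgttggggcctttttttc
H4C7 (chr6:26246997-26247246, minus strand): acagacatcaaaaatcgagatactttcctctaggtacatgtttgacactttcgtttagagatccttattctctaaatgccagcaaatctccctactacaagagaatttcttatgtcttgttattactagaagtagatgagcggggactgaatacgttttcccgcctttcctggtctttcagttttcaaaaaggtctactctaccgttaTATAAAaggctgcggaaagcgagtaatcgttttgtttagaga

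RefSeq promoter entries, which span 250 bases before to 50 bases after the start, were matched for 64 of the 70 genes. H2AC12, H2BC12L, H3C11, H3C12, H4C1 and H4C3 were not matched. Letters were searched at any position of an entry and on either strand. TATAAA was found in 43 of the 64 histone promoters (67.2%) and in 12% of the 27305 promoters of the table. CCAAT was found in 54 (84.4%, against 35.7%), in every H1, H2A, H2B and H3 promoter matched but in only 3 of 13 H4 promoters. The octamer, a binding site of POU domain factors, was found in 14 of 18 H2B and 11 of 16 H2A promoters, in no matched H1, H3 or H4 promoter, and in 1.8% of all promoters. Divergent H2A and H2B genes lie so close that their entries overlap and share matches. AAACACA was found in 6 of 6 H1, 2 of 11 H3 and 1 of 16 H2A promoters, in no matched H2B or H4 promoter, and in 5.76% of all promoters. Genes without any peak held such matches too. H1-1 carried the TATA, CCAAT and H1 boxes, H2AC1 and H2BC1 carried the TATA box, the CCAAT box and the octamer, and H4C7 carried the TATA box.

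Some of these promoters have a second copy in the genome. Over the 2001 bp centred on the start, all stretches of 50 bp in the window of H4C14 also occurred in that of H4C15 (100%). The windows of H3C14 and H3C15 shared 99.8% and those of H2AC18 and H2AC19 shared 87.7%. These 6 genes lie in the chromosome 1 cluster. How the aligner's reads with several equal matches were treated is not given in the sources used here, so the signal at one copy cannot be told apart from that at the other, and the values of these 6 genes are uncertain.

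The deposited peaks numbered 590 to 101702 per library. Library depth, inferred from the smallest step between the signal values, was 5.12 to 47.9 M mapped reads (M, megareads) (median 18.8) in 48 libraries, and is unknown for the 6 NALM6 libraries of replicate 1, which carry another scaling. The cells matched their labels as B lineage, since CD79A, CD79B, PAX5, EBF1 and CD22 all had H3K4me3 peaks in at least 1 library of each line, whereas of 7 genes of other blood lineages only CSF1R did, in REH. A gene was counted as having a peak when a peak shared at least 1 bp with the stretch within 1 kb of any annotated start.

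H3K4 methylation was found at most histone genes. In 29 of the 36 H3K4me2 and H3K4me3 libraries the histone genes had peaks more often than protein-coding genes as a whole, at 57.1% to 88.6% of the histone genes against 42.2% to 62.4% of all genes, a ratio of 1.30 to 1.69. In the other 7 libraries they had peaks less often, at no more than 41.4% of the histone genes against up to 47.1% of all genes. Those 7 libraries were the 4 NALM6 libraries of replicate 1 and 3 libraries of 5.41 to 8.24 M reads, while the other libraries had at least 8.31 M reads. Untreated Raji H3K4me2 replicate 2 (6.70 M reads) had peaks at 26 histone genes, against 56 in each of replicates 1 and 3. Untreated NALM6 H3K4me2 had peaks at 0, 50 and 29 histone genes in replicates 1 to 3, although 27.5% of all genes had a peak in replicate 1.

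Although peaks were frequent at histone genes, they were low. Signal is given below as a relative level, the mean called coverage over the 2001 bp at the gene's 5′ end, in multiples of the library's median over all protein-coding genes with a peak there. Over the 15 H3K4me3 libraries with peaks at 20 or more histone genes, the median relative level of the histone genes called was 0.378 to 0.638. Over the 16 such H3K4me2 libraries it was 0.612 to 0.840. The peak heights gave the same order, at 0.315 to 0.529 of the median promoter for H3K4me3 and 0.605 to 0.813 for H3K4me2. Relative to other promoters, H3K4me2 thus exceeded H3K4me3 at most histone genes with both marks: at 43 of 58 in untreated Raji (74.1%, against 43.9% of all such genes) and at 44 of 61 in untreated REH (72.1%, against 53.8%). Both marks were scaled within each library, so these are levels relative to other promoters and not amounts of each modification. Each value was the mean of 3 libraries, with a library lacking a peak entered as 0. In untreated REH, replicates 1 to 3 had peaks at 61, 61 and 53 histone genes for H3K4me2 and at 61, 41 and 45 for H3K4me3.

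Of the 70 genes, 6 (H1-1, H1-6, H2AC1, H2BC1, H2BC12L and H4C7) had no peak of any mark in the 54 libraries, against 12.9% of all protein-coding genes. The same 6 were those without an H3K4me2 or H3K4me3 peak, against 32.3% of all genes. H1-6, H2AC1 and H2BC1 encode histones expressed mainly in the testis. H2AC1 and H2BC1 form a divergent pair at the far end of the large cluster, 291 kb from the next histone gene, H1-1. In contrast, H1-1 and H4C7 lay among genes with peaks. H3C1, whose start is 2.66 kb from that of H1-1, had H3K4me3 peaks in 6 of 6 Raji and 6 of 6 REH libraries. H3C7, 3.64 kb from H4C7, had them in 6 of 6 libraries of each of these lines too. An absent peak means that no stretch passed the peak caller's threshold, not that the modification was absent.

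Most peaks in the chromosome 6 clusters overlapped the surroundings of histone gene starts. Of 455 H3K4me2 peaks in the 3 clusters, 409 (89.9%) shared bases with a stretch within 1 kb of a histone gene start, as did 398 of 426 H3K4me3 peaks (93.4%). Peaks were summed over the 18 libraries of each mark, so a site called in several libraries was counted each time. These stretches fill part of each cluster, and how many peaks would overlap them by position alone was not tested. Leaving out NALM6 replicate 1, H3K4me3 peaks covered a median of 8.84% of the large cluster (range over 16 libraries 0 to 12.1%), 47.1% of the second (0 to 59.7%) and between 1.99% and 33.6% of the last. The stretches between the clusters were covered by a median of 2.47% and 1.88%. H3K4me2 covered 11.2%, 52.9% and 31.2% of the 3 clusters and 2.48% and 1.56% of the stretches between them. The clusters hold a gene every few kb, so coverage follows the spacing of genes as well as the width of peaks.

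**Figure D1:**
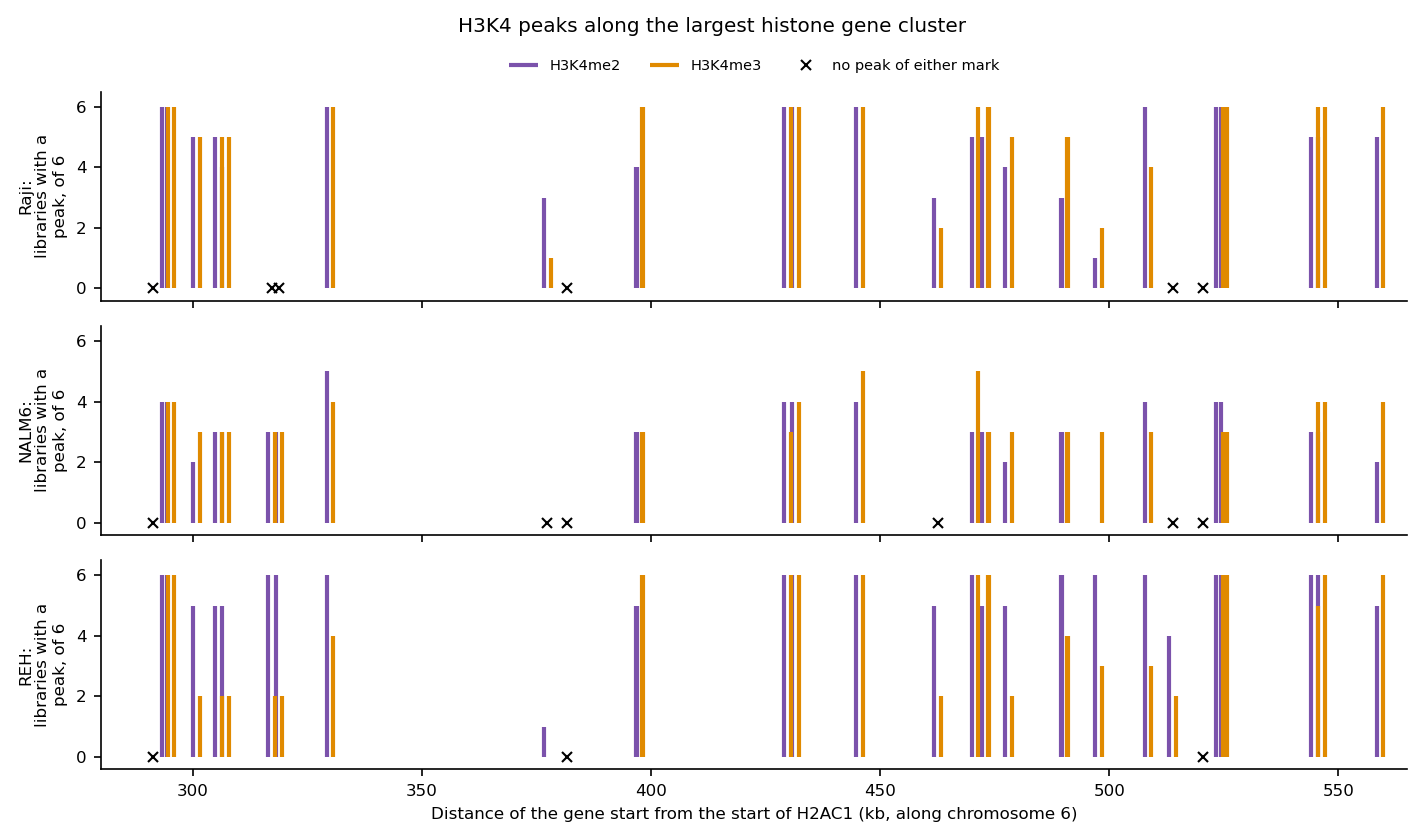
The x axis is the distance of each gene start from that of H2AC1 (kb) in the largest chromosome 6 cluster and the y axis the number of libraries with a peak, of 6, in each line, with purple sticks for H3K4me2, orange sticks for H3K4me3 and crosses for genes with neither. H2AC1 and H2BC1, both without peaks, lie at the origin outside the plotted range. H3C3 and H2BC3, near 318 kb, are crosses in Raji but reach 6 libraries for H3K4me2 in REH.

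The linker histone genes fell into a group of 4 with peaks and a pair without. H1-2, H1-3, H1-4 and H1-5 had H3K4me2 peaks in 15 to 17 of 18 libraries and H1-1 and H1-6 in none. Their H3K4me3 was low. H1-4, the highest of the family, had a mean relative level of 0.387 over the 9 untreated libraries (range 0 to 0.482), and H1-3, the lowest of those with peaks, had 0.140 (0 to 0.418). For H3K4me2, H1-2 had relative levels of 0.928, 0.893 and 0.988 in untreated Raji and 0.752, 0.660 and 0.422 in untreated REH, so that the lines did not overlap. H1-2 was named because it passed the test on these same libraries, described below.

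Divergent H2A and H2B genes shared their peaks. In all 648 combinations of the 12 pairs with the 54 libraries, both genes had a peak or neither had, which the overlap of their windows largely fixed. H2AC18 had the highest H3K4me3 among H2A genes (mean relative level 1.19 over the 9 untreated libraries, range 0 to 1.69), and H2BC15 among H2B genes (0.944, 0 to 1.32). Apart from H2AC1, H2BC1 and H2BC12L, the lowest were H2AC25 (0.0668) and H2BC3 (0.0597). H2BC15 and its partner H2AC15 had H3K4me3 peaks in 17 of 18 libraries, as did H2BC6 and H3C4.

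H3 genes all had H3K4 peaks in some library. H3C14 was highest (mean relative H3K4me3 level 1.19, range 0 to 1.69 over the 9 untreated libraries). It carries the same values as H2AC18 because 1 peak spans both starts and the mean coverage of that peak was used. H3C3 was lowest, with a mean of 0.0790 and a highest value of 0.251. Among H4 genes, H4C14 was highest (0.896, range 0 to 1.28) and, apart from H4C7, H4C3 was lowest (0.00367), with an H3K4me3 peak in 1 library of 18, in Raji. H4C4 had an H3K4me3 peak in 4 libraries and H4C6 in 2. Together with the 6 genes without peaks, these 3 H4 genes were those with H3K4me3 peaks in at most 4 of 18 libraries.

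Several histone genes had peaks in one line and not in another. H3C3 and H2BC3, whose starts are 1.67 kb apart, had H3K4me2 peaks in 6 of 6 REH libraries and 0 of 6 Raji libraries. That pattern was found in 2.86% of the histone genes and in 4.98% of all genes. Their H3K4me3 peaks were in only 2 of 6 REH libraries and 0 of 6 Raji libraries. In REH the relative H3K4me2 level of H3C3 was 0.917, 0.771 and 0.530 untreated and 0.860, 0.720 and 0.633 with bryostatin, and in Raji it was 0 in all 6 libraries. In NALM6 both genes had H3K4me2 and H3K4me3 peaks in 3 of 6 libraries. Their neighbours on either side had peaks in Raji: H2AC4, 10.1 kb before H2BC3, in 4 and H1-2, 11.1 kb after H3C3, in 6 of 6 Raji H3K4me2 libraries.

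H2AC25 and H2BC26, the isolated pair on chromosome 1, had the opposite pattern. They had no H3K4me2 or H3K4me3 peak in REH or NALM6 but had H3K4me3 peaks in 5 and H3K4me2 peaks in 2 of 6 Raji libraries. An H3K4me2 peak in some Raji library and in 0 of 6 REH libraries was found in 2.86% of the histone genes and in 3.84% of all genes. The relative H3K4me3 level of H2AC25 in Raji was 0.197 to 0.205 untreated and 0.253, 0.190 and 0 with bryostatin, low beside the median promoter. The H3K4me2 peaks were in bryostatin replicates 1 and 2 (0.283 and 0.298), and the 3 untreated Raji libraries had none. RNF187 and TRIM11, 29.5 and 51.0 kb from H2AC25 on either side, had H3K4me3 peaks in all 6 libraries of each line. H2AC25 and H2BC26 also had H3K27me3 peaks in 3 of 6 Raji libraries, 1 of them untreated replicate 2, which stood apart as described below.

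H4C16 is the H4 gene outside the clusters. It had peaks of both H3K4 marks in 6 of 6 Raji and 6 of 6 REH libraries and in 0 of 6 NALM6 libraries, and 0.419% of all genes had H3K4me3 peaks in that pattern. Its relative H3K4me3 level was 1.34, 1.34 and 1.40 in untreated Raji, 1.09, 0.875 and 0.699 in untreated REH and 0 in the NALM6 libraries. Chromosome 12 was not without signal there in NALM6. WBP11, 32.4 kb away, had H3K4me3 peaks in 3 of 6 NALM6 libraries and ARHGDIB, 191 kb away, in 4. H2AJ, a replication-independent H2A gene 3.27 kb from H4C16, had H3K4me3 peaks in 6 of 6 REH, 1 of 6 Raji and 0 of 6 NALM6 libraries. NALM6 had fewer peaks at most histone genes, and its 4 H3K4 libraries of replicate 1 had peaks at 0, 1, 7 and 12 of them, so an absent peak there says less than in Raji or REH.

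Polycomb-type marking of histone genes was rare. No histone gene had an H3K27me3 peak in the 12 REH and NALM6 libraries, whereas 36.7% of all genes had one in at least 1 of them. In Raji 22 of the 70 had one in at least 1 of 6 libraries, against 70.8% of all genes. Of these, 18 came in untreated replicate 2, a library that stood apart: 57.0% of all gene starts had a peak there, and 79.6% of those had H3K4me3 peaks in all 6 Raji libraries, against 10.1% to 23.6% in the other Raji H3K27me3 libraries. In the other 5 Raji libraries 6 histone genes (H2AC8, H2BC8, H2AC25, H2BC26, H3C7 and H2BC9) had an H3K27me3 peak, against 32.6% of all genes. No histone gene reached H3K27me3 peaks in all 6 Raji libraries, but few genes of any kind could. Untreated replicate 1 had peaks at only 1.39% of all genes.

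The first test asked whether bryostatin changed the signal at histone gene promoters. For each gene with a peak in all 6 libraries of a line and mark, the log2 mean called coverage within 1 kb of its starts was compared by limma with Benjamini-Hochberg adjustment over all protein-coding genes tested. No histone gene passed an adjusted p of 0.05 in any line. The histone genes tested were 26 for H3K4me2 in Raji, where 0% of all genes tested passed, 49 in REH (0.0408%), 47 for H3K4me3 in Raji (0%) and 36 in REH (0.0607%). In NALM6 no histone gene had a peak in all 6 libraries, so none was tested for either mark, and 0% of the genes that were tested passed. At an unadjusted p under 0.05 there were 5 of 26, 7 of 49, 1 of 47 and 5 of 36 histone genes in these 4 comparisons. Among all genes tested there were 670 of 8848, 624 of 9792, 329 of 9894 and 469 of 8235. Genes under the same peak share values, so the tested genes stood for 18, 27, 27 and 20 separate regions.

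The median log2 change of the histone genes tested was -0.14 for H3K4me2 in Raji (8 positive, 18 negative), 0.11 in REH (43 positive, 6 negative), 0.03 for H3K4me3 in Raji (28 and 19) and -0.12 in REH (4 and 32). The corresponding medians over all genes tested were -0.03, -0.01, 0.00 and 0.01. The largest falls for H3K4me2 in Raji were at H4C11 (log2 change -0.79 ± 0.20 SE, adjusted p = 0.648 by limma) and H4C12 (-0.70 ± 0.18, adjusted p = 0.648). The relative level of H4C11 was 0.739, 0.626 and 0.575 untreated and 0.368, 0.424 and 0.480 with bryostatin, so the groups did not overlap, yet the fall did not pass the test over all genes. H4C12 had 1.10, 0.818 and 0.766 untreated and 0.668, 0.627 and 0.563 with bryostatin. For H3K4me3 in Raji, H4C9 had 0.951, 0.602 and 0.598 untreated and 0.334, 0.375 and 0.426 with bryostatin (log2 change -0.88 ± 0.20 SE, adjusted p = 0.781 by limma).

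Among the other largest changes, those of H3C7, H3C1 and H3C13 had 1 library far from the rest. H3C7 had the largest fall of H3K4me3 in Raji (-1.28 ± 0.78 SE), with relative levels of 0.261, 0.293 and 0.0220 with bryostatin against 0.255 to 0.353 untreated. H2BC9 had the largest positive change of H3K4me2 in Raji (1.81 ± 0.84 SE, adjusted p = 0.648 by limma), and its relative level was 0.133, 0.0146 and 0.289 untreated and 0.439, 0.637 and 0.125 with bryostatin. H3C1 had 0.55 ± 0.47 in the same comparison, with a single low untreated library (0.190, against 0.907 and 1.17). In REH the H3K4me2 extremes were H3C13 (1.72 ± 0.84), with 1 untreated library at 0.0332, H1-5 (0.39 ± 0.17), H3C10 (-0.73 ± 0.65) and H4C9 (-0.20 ± 0.17). The H3K4me3 extremes in REH were H2AC21 (0.33 ± 0.34) and H3C12 (0.03 ± 0.25), and H2AC11 (-0.31 ± 0.12) with H2AC17 and H2BC17 (-0.29 ± 0.11), and in Raji the highest were H2AC20 and H2BC21 (0.25 ± 0.13). None had an adjusted p below 0.648.

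**Figure D2:**
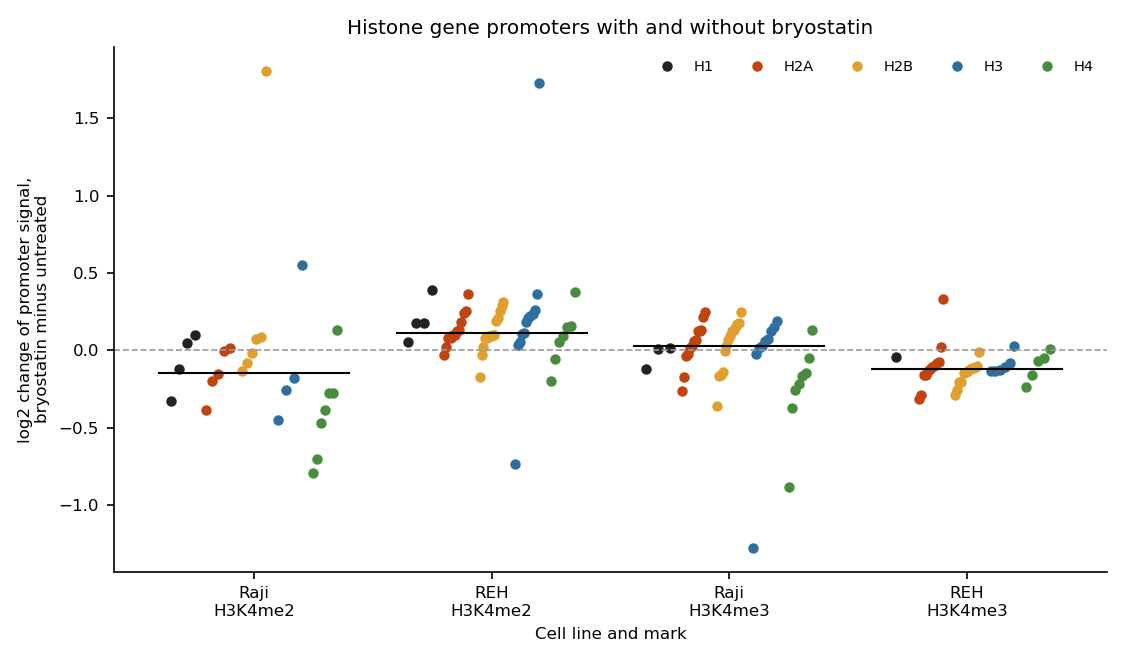
Each point is the log2 change of promoter signal (bryostatin minus untreated, y axis) of 1 histone gene tested in Raji or REH for H3K4me2 or H3K4me3 (x axis), coloured by family, with a black line at the median of each comparison. The medians lie between -0.14 and 0.11 and no gene passed the adjusted p.

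The share of histone genes with a peak varied between libraries of a group, and the part of depth in it was not tested. In Raji H3K4me2 it was 65.7% ± 24.7 (SD, n = 3) untreated and 81.0% ± 9.51 with bryostatin, a difference of 15.2 percentage points, and the untreated libraries had 6.70 to 13.9 M reads against 15.6 to 18.8 M reads. Without untreated replicate 2 the difference was 0.952 points. In REH the share was 83.3% ± 6.60 against 84.8% ± 5.41 for H3K4me2 and 70% ± 15.1 against 70% ± 15.5 for H3K4me3. In Raji H3K4me3 it was 82.9% ± 3.78 against 78.6% ± 10.0, and the difference of -4.29 points became 1.43 without bryostatin replicate 3. In NALM6 H3K4me2 the shares were 37.6% ± 35.9 and 54.3% ± 45.8, with a difference of 16.7 points that ranged from -2.14 to 43.1 as single libraries were left out. In NALM6 H3K4me3 they were 58.6% ± 42.1 and 37.1% ± 39.7, a difference of -21.4 points that ranged from -45.7 without untreated replicate 1 to -8.57 without bryostatin replicate 3, which had 5.41 M reads and peaks at 8 histone genes. Each difference was smaller than the SD of at least 1 of its groups. H3K27me3 in Raji went from 11.4% ± 13.1 to 1.90% ± 3.30, and from -9.52 points to -2.38 without untreated replicate 2. Over all protein-coding genes, the mean share with an H3K27me3 peak in Raji fell too, from 28.6% to 11.5%. For H3K4me2 the all-gene share went from 51.2% to 55.3% in Raji, 57.3% to 55.8% in REH and 38.9% to 44.2% in NALM6. For H3K4me3 it went from 53.1% to 52.1% in Raji, 49.9% to 48.6% in REH and 45.9% to 40.4% in NALM6.

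The second test compared the untreated lines, with positive values where Raji was higher than REH. Most of the histone genes called for H3K4me3 were lower in Raji. Of 37 histone genes tested, 17 passed the adjusted p (limma), against 29.7% of all genes tested. Of these, 16 were lower in Raji, where 15.4% of all genes tested were called lower and 14.3% higher. The median log2 difference of the 37 was -0.48, with 33 negative, and that of all genes tested was 0.02. Without centring each library on its median, the median of all genes was -0.29 and that of the histone genes -0.79, and 142 genes were called higher and 1228 lower, with 18 histone genes lower and 0 higher. With centring, 1124 genes were called higher and 1203 lower. The 37 stood for 21 separate regions, and the 17 for 10. Which of these genes were tested depends on peaks in all 6 libraries, so genes absent from either line are not among them. The untreated libraries are the same as those of the bryostatin comparisons.

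The largest difference was at H2AC20 and H2BC21, the divergent pair shown above (log2 difference -1.21 ± 0.11 SE, adjusted p = 4.85e-05 by limma). Their relative H3K4me3 level was 0.246, 0.245 and 0.234 in Raji and 0.624, 0.467 and 0.483 in REH. H2AC21, beside them, was lower by a like amount with a wider error (-1.10 ± 0.36, adjusted p = 0.0440), and 6 of its 15 alternatives lost the call. H3C7 differed by -1.09 ± 0.17 (adjusted p = 0.000892 by limma), with 0.255, 0.353 and 0.272 in Raji and 0.728, 0.439 and 0.599 in REH. H2AC16 differed by -1.05 ± 0.14 (adjusted p = 0.000471 by limma), with 0.313, 0.305 and 0.379 against 0.826, 0.574 and 0.546. In each of H2AC20, H3C7 and H2AC16 the 3 Raji libraries lay below the 3 REH libraries. These genes were named for large differences in the same libraries, so their separation adds nothing to the test. At H2AC21 the lines overlapped, with 0.147, 0.231 and 0.199 in Raji and 0.624, 0.467 and 0.184 in REH.

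The other H2A, H2B and H3 genes called lower in Raji differed less. They were H2AC18 and H3C14 (-0.83 ± 0.13 SE), H2AC19 and H3C15 (-0.75 ± 0.11), H2AC17 and H2BC17 (-0.71 ± 0.12), H2AC12 (-0.70 ± 0.16), H2BC13 (-0.64 ± 0.15), H2AC13 (-0.62 ± 0.14), H2BC12 (-0.61 ± 0.15) and H2BC11 (-0.50 ± 0.17). Their adjusted p-values by limma ran from 0.000868 at H2AC19 to 0.0479 at H2BC11, which lost the call in 10 of 17 alternatives. H2AC18, H2AC19, H3C14 and H3C15 are the near-identical copies described above, so they are not independent of each other. No H1 gene was called for H3K4me3, and H1-4 was the only H1 gene tested.

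H4C16 alone was higher in Raji (0.88 ± 0.12 SE, adjusted p = 0.000548 by limma), with the values given above. The call was lost when each library was not centred on its median (0.57, adjusted p = 0.107) and when the maximum height of the peaks was compared in place of their coverage (0.28, adjusted p = 0.164), both by limma. No other H4 gene passed for H3K4me3.

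For H3K4me2 the histone genes were not called more often than genes as a whole. Of 25 histone genes tested, 5 passed, against 32.9% of all genes tested. All 5 were higher in Raji, a share close to the 18.4% of all genes tested that were called higher, and 14.5% were called lower. Without centring, 718 genes were called higher and 1619 lower, in place of 1523 and 1202, the median of all genes was -0.12 in place of 0.06 and that of the histone genes -0.02 in place of 0.16, and 3 histone genes were called, all higher. With centring the 5 were H4C12 (0.93 ± 0.17 SE, adjusted p = 0.00284 by limma), H1-2 (0.75 ± 0.18), H4C16 (0.70 ± 0.13), H4C9 (0.54 ± 0.13) and H4C15 (0.52 ± 0.14), that is, 4 H4 genes and a linker histone gene. The relative H3K4me2 level of H4C12 was 1.10, 0.818 and 0.766 in Raji and 0.459, 0.541 and 0.486 in REH, and that of H4C9 was 1.11, 0.948 and 1.21 against 0.810, 0.738 and 0.825. H2BC9 differed more by value but did not pass (-2.24 ± 0.87 SE, adjusted p = 0.0736 by limma). At H4C16 the H3K4me2 levels at the 5′ end overlapped (1.26, 1.03 and 1.61 against 1.10, 1.05 and 0.936), and with that start alone the call was lost (0.29, adjusted p = 0.21 by limma). H4C15 has an identical copy at H4C14 and its direction changed with the measure of signal. The direction of the calls depended on that measure too: with the total signal of whole peaks 4 histone genes were higher and 5 lower in Raji, and with merged regions 4 were higher and 8 lower. The counts over all genes in those fits are not given here.

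**Figure D3:**
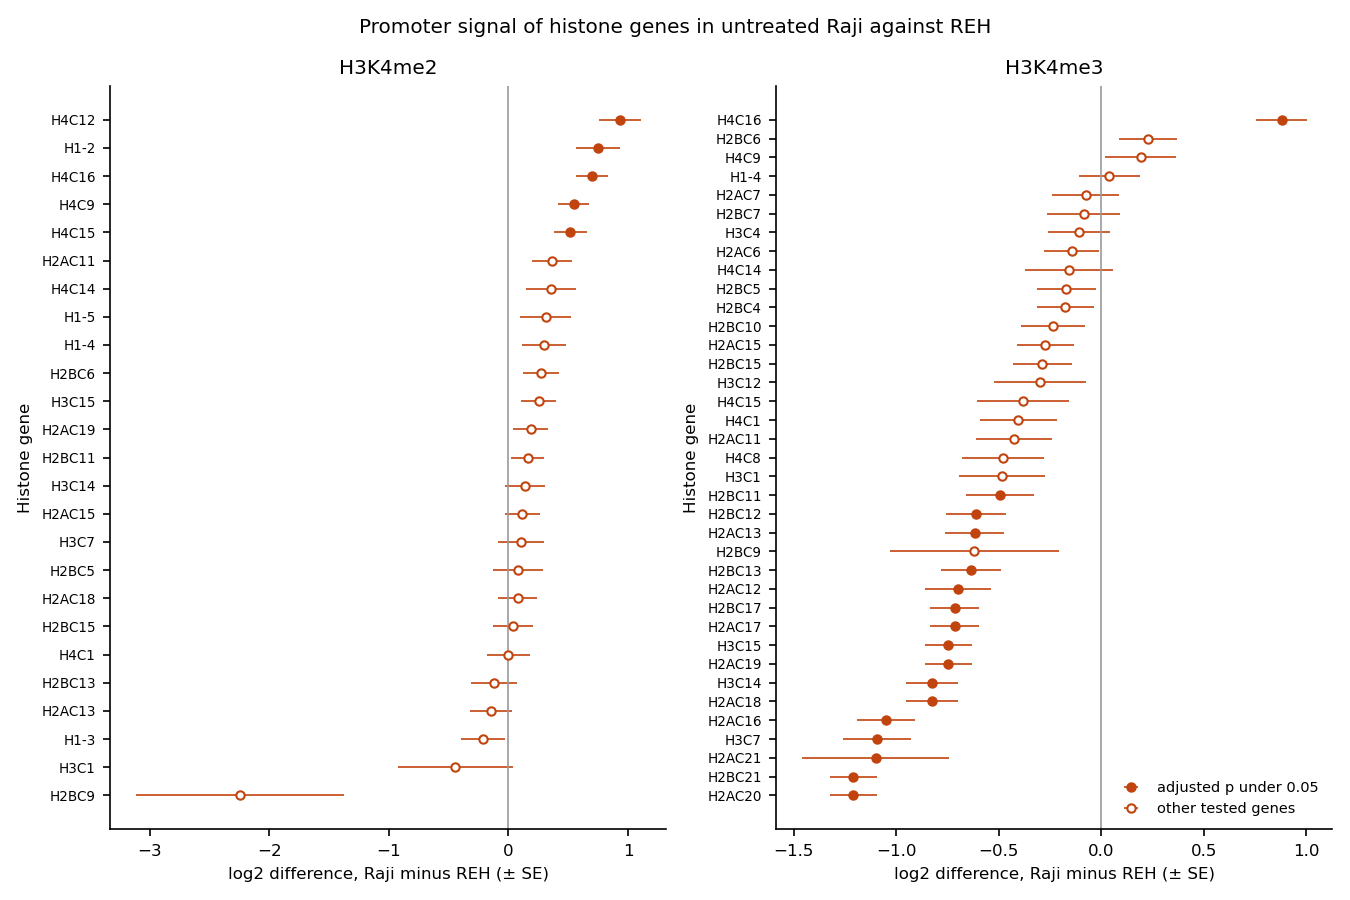
Points are log2 differences of promoter signal (untreated Raji minus untreated REH, x axis) with standard errors as bars, for each histone gene tested (y axis), with H3K4me2 on the left and H3K4me3 on the right. Filled points passed an adjusted p of 0.05: 5 for H3K4me2, all above 0, and 17 for H3K4me3, of which only H4C16 lies above 0.

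In NALM6 against REH no histone gene could be tested for H3K4me2, where 4.93% of all genes tested passed, and 7 could for H3K4me3, of which 0 passed (3.01% of all genes tested) and 0 had an unadjusted p under 0.05. Without NALM6 replicate 1, a choice made after seeing the data, 1 of 28 histone genes passed for H3K4me2 (H2BC5, higher in NALM6), against 14% of all genes in that fit, and 3 of 36 for H3K4me3 (H2BC6 higher, H2AC13 and H2BC13 lower), against 20.6%. Whether the response to bryostatin differed between Raji and REH was tested by an interaction term over 12 libraries. No histone gene passed, of 25 tested for H3K4me2 (0% of all genes) and 36 for H3K4me3 (0%). At an unadjusted p under 0.05 there were 6 and 4 of them, and 459 of 7788 and 217 of 7583 among all genes tested. Leaving out untreated Raji replicate 3 gave 1 call for H3K4me2, at H4C12, and the count over all genes in that fit is not given here.

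Other genes of the histone pathway were taken from 3 lists. Of 20 genes for histone supply, which include the transcription coactivator NPAT, the stem-loop binding protein SLBP and parts of the mRNA processing machinery, all 20 had H3K4me3 peaks in all 6 Raji libraries, 15 in all 6 REH and 11 in all 6 NALM6 libraries. The shares of all protein-coding genes with H3K4me3 peaks in all 6 libraries were 49.4% in Raji, 41.1% in REH and 23.2% in NALM6. None passed the test with bryostatin in any line, of 16, 17 and 7 tested for H3K4me2 in Raji, REH and NALM6 and of 20, 15 and 11 for H3K4me3. Against REH, untreated Raji had higher H3K4me2 at CASP8AP2, LSM11 and CCNE2 and lower at UPF1, of 16 tested, and higher H3K4me3 at SRRT and lower at CCNE1, of 17. Among all genes tested, 32.9% passed for H3K4me2 and 29.7% for H3K4me3. NPAT, which activates histone genes at nuclear bodies beside their clusters, had a mean relative H3K4me3 level of 0.847 over the 9 untreated libraries and SLBP had 3.15.

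Of 13 genes listed as replication-independent histones, 5 to 10 could be tested with bryostatin in each line and mark, and 0 passed. Between untreated Raji and REH, of 8 tested for each mark, H3K4me2 was higher in Raji at H1-10, MACROH2A1 and H2AZ2, and H3K4me3 was lower at H1-10 (log2 difference -1.90), H3-3B (-0.60) and H2AX (-0.40). The shares of all genes tested that passed were 32.9% and 29.7% for these marks. Of 9 histone chaperone genes 4 to 9 could be tested with bryostatin and 0 passed. Between the untreated lines only CHAF1B passed, with lower H3K4me3 in Raji (-1.46), of 8 tested, against 29.7% of all genes tested. CHAF1B is a subunit of the chromatin assembly factor that deposits H3 and H4 on new DNA. The medians of the lists for H3K4me3 in this comparison were 0.11 for supply, -0.26 for replication-independent histones and -0.04 for chaperones, beside -0.48 for the replication-dependent histone genes. The share of cells in S phase was not measured, so its part in any difference between lines or treatments was not tested.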

How the data were processed

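The authors trimmed reads with Trim Galore, aligned them to hg38 with Bowtie2 and called peaks with SEACR (stringent) in each library separately. Versions and the handling of reads with several matches are not given in the sources used here. The deposited files list peaks with total and maximum signal, which is coverage in RPKM over 10 bp bins in 48 libraries and in another, unstated scaling in the 6 NALM6 libraries of replicate 1. Coverage exists only where a peak was called. The samples' labels name H3K27me3 and the series text H3K27me2. Of 72 samples, the 54 libraries with peak files were used, grouped by their labels.

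Promoter signal was the mean signal of each peak times the bases shared with the window within 1 kb of the starts of each GENCODE 44 gene, over the window length, on the log2 scale, centred on the library median of the genes tested. Genes with a peak in all libraries compared were tested with limma 3.58.1 (R 4.3.3; trend, no block; Benjamini-Hochberg). Neighbouring genes under the same peak share its mean signal, and limma treats them as separate. Tables were read with Python 3.11.15 (pandas 2.3.3). The fits were tested on simulated data. Depth was inferred from the smallest signal step (tolerance 0.02 of a step for a whole number). Mean signal values carry no counting interval.

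The members, lists, tests and named genes were chosen with earlier results of these data known. Named genes were those past the adjusted p, the 2 largest rises and falls per line and mark, the highest and lowest of each family, those with few H3K4me3 peaks, the testis-biased, unclustered and duplicated ones. Genes next to a member were named after their values were seen. One lineage marker gene is not reported here.

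Replicate numbers paired treated with untreated libraries by correlation of deviations (all over 0.1) for NALM6 H3K4me2 (0.31 to 0.44), NALM6 H3K4me3 (0.49 to 0.68) and Raji H3K4me3 (0.19 to 0.46), and not elsewhere. Alternatives changed the signal measure, window, starts, centring, filter, trend, block and replicates.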

Additional observations from a re-analysis of the deposited data

How the results depend on the processing

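Of the values that answer a comparison, 305 recomputed under an alternative kept their size or call and 14 moved. No histone gene was called with bryostatin under any alternative run. For untreated Raji against REH in H3K4me3, the 17 calls became 26 with merged regions, 28 when genes missing from some libraries were admitted and 14 to 23 as single libraries were left out. For H3K4me2 the 5 calls became 8 with maximum signal, 9 with whole total signal, 12 with merged regions, 3 without centring, 2 with the first start only and 4 to 7 as single libraries were left out. NALM6 against REH in H3K4me2 went from 0 to 1 when genes missing from some libraries were admitted and to 1 without NALM6 replicate 1, and in H3K4me3 from 0 to 3 without it. Over single libraries left out, these counts ran from 0 to 1 and from 0 to 3, and that of the interaction for H3K4me2 from 0 to 1. Apart from the fits without centring and without NALM6 replicate 1, the counts over all genes are not given here. The histone gene counts under the other alternatives therefore cannot be set against those of genes as a whole. The difference in the share of histone genes with an H3K4me3 peak in Raji became 3.33 points with an equal number of peaks per library.

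Adding the replicate number as a block gave 18 calls in H3K4me3 and 5 in H3K4me2 for Raji against REH, and H2BC11 lost its call (adjusted p = 0.0737 by limma). The block left the other counts of histone genes called at 0. The replicate numbers did not pair the samples in the line comparisons, in REH or in Raji H3K4me2.

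Among named genes, 483 recomputed values kept direction and side of the threshold, 39 lost the call and 22 changed sign. With maximum signal, H1-5 became -0.03, H2AC21 -0.18, H3C10 0.07, H3C12 -0.35 and H4C9 0.00 (all REH with bryostatin). With whole total signal, H3C1 in Raji became -0.04, and in REH H3C10 became 0.24, H3C12 -0.15 and H4C9 0.03. H4C15 in the line comparison became -0.46 with total signal and -0.49 with merged regions. With merged regions H3C12 became -0.15 and H4C9 0.01, and with the first start only H3C12 became -0.27. As single libraries were left out, H2AC21 ranged from -0.16 to 0.59, H3C1 from -0.19 to 0.98, H3C10 from -1.38 to 0.11, H3C12 from -0.15 to 0.28 and H4C9 in REH H3K4me2 from -0.37 to 0.00. The cause was not tested. An absent peak is limited by depth, which is unknown for NALM6 replicate 1.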
